A study of Rattus norvegicus with 6 samples.

Results

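The genes described here are 46 genes that drive or mark the cell division cycle, measured in the renal cortex of rats given the fungicide chlorothalonil or its vehicle. The rule names them as genes of DNA replication and mitosis and uses no measured value, though it was written with earlier results of these data known, and each was read from array probes designed on its RefSeq transcript. Of the 46 genes, 41 had such a probe and 40 were tested, among 11926 genes with a symbol and 29115 features in all. They were divided by the phase in which their products mainly act. The 18 G1/S genes start or carry out DNA replication, and 17 of them were tested. The 28 G2/M genes act in mitosis, and 23 of them were tested.

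In the resting kidney most tubule cells are outside the cell cycle, and RNA from these genes, above all the mitotic ones, is used as a readout of proliferation. Cells that commit to division first make the cyclins and E2F factors that open S phase, then load and fire replication origins. Late in the cycle the factors FOXM1 and the MuvB complex, which binds a promoter element called CHR together with NF-Y at CCAAT boxes, raise a separate group of genes for spindle assembly, chromosome segregation and cytokinesis. After injury to the proximal tubule, surviving tubule cells re-enter the cycle, which is why these genes are read in studies of kidney toxicants.

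Both groups were male Sprague-Dawley (Crl:CD(SD)) rats, bought at 5 weeks of age and carrying no engineered allele. In the treated group 3 animals received chlorothalonil, a chlorinated aromatic nitrile, at 500 mg/kg/day for 4 weeks, and in the control group 3 animals received corn oil for 4 weeks. Each animal gave 1 array of total renal cortex RNA, described in the series as a biological replicate. One source label of chlorothalonil replicate 3 names ethylenediamine dihydrochloride, whereas its title, treatment and dose labels name chlorothalonil, so the main values are also given without this array. The corn oil arrays shared 1 slide and the chlorothalonil arrays shared a different one, so slide and treatment cannot be told apart in any comparison here.

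Each array held 61537 non-control probes, of which 62.1% to 67.8% were well above background and 0 were saturated. Levels are log2 of the scanner's processed signal minus the log2 of the array's 75th percentile, so 0 is the 75th percentile of that array and 1 unit is a doubling. A level of this kind follows a probe's own binding as well as its RNA, so levels of different genes are not set against each other. The lowest level that was well above background lay between -5.79 and -4.89, depending on the array. Well above background on every array were 10 of 10 proximal tubule, 6 of 6 podocyte and 4 of 4 medulla markers. The same held for 26934 of the 29115 features tested, so this reading cannot tell cortex from medulla.

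**Figure D1:**
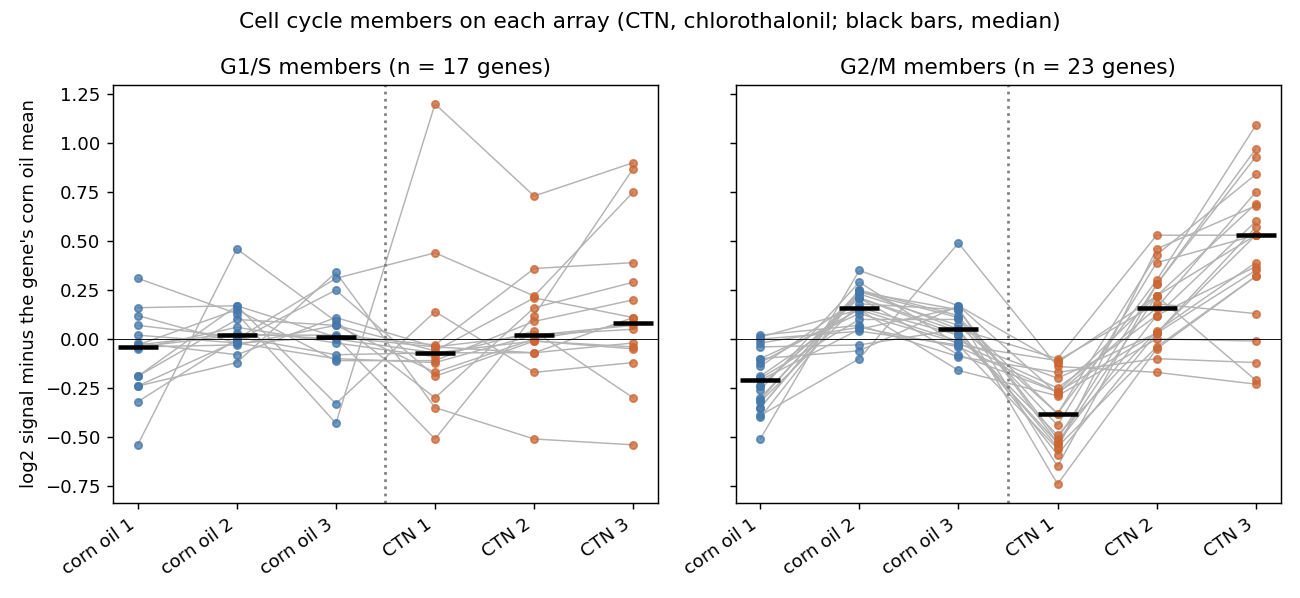
Each thin line is 1 gene and shows its log2 level on the 6 arrays (3 corn oil, 3 chlorothalonil) minus its mean over the corn oil arrays; G1/S genes are on the left, G2/M genes on the right, and the black bars are medians. Lines join values of 1 gene and imply no order of animals. The G2/M median ran from -0.378 on chlorothalonil replicate 1 to 0.528 on chlorothalonil replicate 3, while the G1/S median stayed between -0.071 and 0.087.

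Before the values, the promoters of 4 genes are shown, as background on the promoter elements named above. Whether such elements have a part in the array values was not tested. RefSeq promoters of the build GRCr8 were at hand for 34 of the 46 genes, and the 250 bases before the first listed start were searched on both strands. The motifs were CHR, spelled TTTGAA; the CCAAT box, spelled CCAAT; and E2F sites, spelled TTTGGCGC, TTTCGCGC, TTTCCCGC or TTTGCCGC. CHR letters were in 10 of 22 G2/M promoters (45.5%) and in 1 of 12 G1/S promoters (8.33%), beside 4402 of all 27457 promoters. CCAAT letters were in 18 of 22 G2/M promoters (81.8%) and 6 of 12 G1/S promoters, beside 34.3% of all promoters. E2F letters were in 6 of 12 G1/S promoters and 1 of 22 G2/M promoters (4.55%), beside 1.81% of all promoters. These are matches of letters and not binding sites. Capitals mark the motif letters, on either strand, and each sequence is printed 5′ to 3′ on the strand of its gene.
Cdk1, chr20:19265043-19265292, plus strand, with 2 CHR, 3 CCAAT and 1 E2F match: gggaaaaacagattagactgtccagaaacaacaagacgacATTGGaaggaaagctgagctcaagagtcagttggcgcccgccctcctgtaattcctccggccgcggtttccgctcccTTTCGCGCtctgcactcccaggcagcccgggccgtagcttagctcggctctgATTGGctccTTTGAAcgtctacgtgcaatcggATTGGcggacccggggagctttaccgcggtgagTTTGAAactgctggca
Prc1, chr1:143659231-143659480, plus strand, with 1 CHR and 2 CCAAT matches: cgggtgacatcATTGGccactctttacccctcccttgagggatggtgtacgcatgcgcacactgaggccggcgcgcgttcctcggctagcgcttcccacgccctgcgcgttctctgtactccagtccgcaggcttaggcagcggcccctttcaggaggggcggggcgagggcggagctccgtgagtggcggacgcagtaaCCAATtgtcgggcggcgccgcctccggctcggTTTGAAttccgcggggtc
Cdc20, chr5:137255800-137256049, minus strand, with 1 CHR and 2 CCAAT matches: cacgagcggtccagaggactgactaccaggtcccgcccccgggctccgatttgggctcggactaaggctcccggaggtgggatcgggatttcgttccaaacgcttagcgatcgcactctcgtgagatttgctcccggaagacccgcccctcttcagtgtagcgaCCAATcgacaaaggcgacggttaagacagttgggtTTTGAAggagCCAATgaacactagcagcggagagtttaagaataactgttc
Mcm7, chr12:22163179-22163428, minus strand, with 3 CCAAT and 2 E2F matches, 1 of each overlapping: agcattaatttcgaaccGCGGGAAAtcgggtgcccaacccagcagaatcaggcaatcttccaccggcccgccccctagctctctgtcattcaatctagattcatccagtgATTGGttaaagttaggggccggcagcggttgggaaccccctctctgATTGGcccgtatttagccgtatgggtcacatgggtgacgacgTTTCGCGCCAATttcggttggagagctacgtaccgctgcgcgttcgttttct
Cdk1, Prc1 and Cdc20 are examples of mitotic genes with CHR near the start site, and Mcm7 of a replication gene with E2F letters and no CHR. They do not stand for all genes of their phase, since CHR was in 10 of 22 G2/M promoters and E2F letters in 6 of 12 G1/S promoters. Cdk1 was the 1 of 22 G2/M genes with E2F letters.

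The first comparison asked whether chlorothalonil changed the level of these genes. With limma and Benjamini-Hochberg adjustment over all 29115 features, 0 of the 40 genes passed an adjusted p of 0.05, where 3.12% of all features and 2.14% of features with a symbol did. An unadjusted p under 0.05 was reached by 2 of the 40, Cdc6 and Chek1, where 19.7% of all features reached it (9.6% higher and 10.1% lower with chlorothalonil). The 3 chlorothalonil values lay wholly outside the 3 corn oil values for 3 of the 40, Cdc6 above and Chek1 and Kif11 below, where this held for 27.7% of all features, 13.6% above and 14.0% below. The median log2 difference, chlorothalonil minus corn oil, was -0.012 over the 17 G1/S genes and 0.074 over the 23 G2/M genes, beside 0.004 over all features. Among G1/S genes 8 differences were above 0 and 9 below; among G2/M genes 16 were above 0 and 7 below. Cdc6 and Cdt1 met the filter on dim probes only through the chlorothalonil arrays, and without them the G1/S median over 15 genes was -0.016. Since whole cortex was measured, fewer cycling cells and less RNA per cycling cell cannot be told apart in any of these values.

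**Figure D2:**
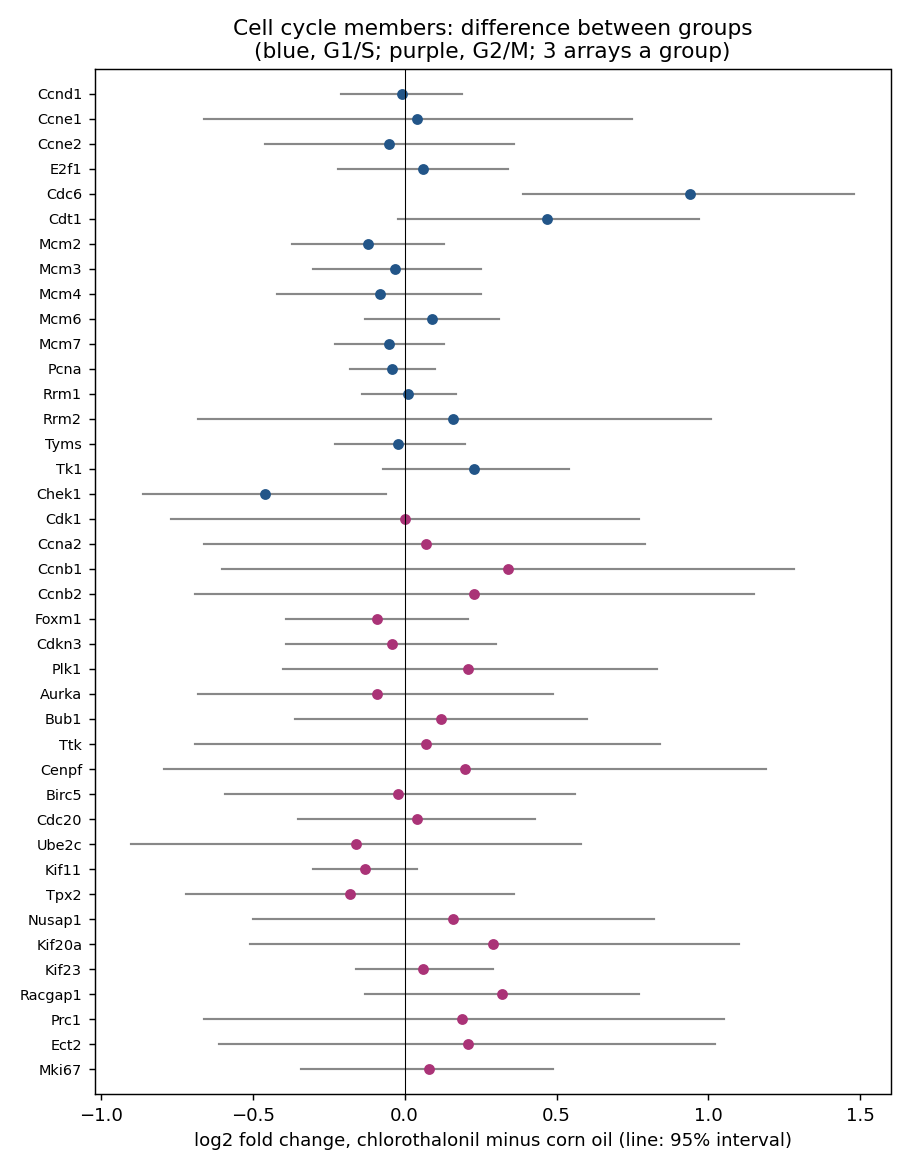
The log2 difference, chlorothalonil minus corn oil, is plotted for each of the 40 genes with its 95% confidence interval from limma (3 arrays per group), ordered by role, with G1/S genes in blue and G2/M genes in purple. Apart from Cdc6 (above 0) and Chek1 (below 0), each interval spans 0, and intervals of most G2/M genes are wide.

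The G1 cyclins and E2F1 commit a cell to S phase. Ccnd1, cyclin D1, which links growth signals to RB phosphorylation, measured 2.89, 2.83 and 2.74 on corn oil replicates 1 to 3 and 2.75, 2.75 and 2.93 on chlorothalonil replicates 1 to 3. These ranges overlapped almost wholly, and the difference was -0.01 ± 0.08 (SE, n = 3 and 3; limma adjusted p 0.956). E2f1, the transcription factor released by RB, measured -1.52, -1.34 and -1.60 with corn oil and -1.60, -1.40 and -1.29 with chlorothalonil, a difference of 0.06 ± 0.11 (limma adjusted p 0.81). With the mean of its 4 kept probes in place of the brightest, the difference was 0.55 (limma adjusted p 0.0553). The probes ranged from 0.06 to 1.14, and the 2 with the largest differences were well above background on 0 and 2 of 3 corn oil arrays, so they were kept only through the chlorothalonil arrays. For the E cyclins, which activate CDK2 at the start of S phase, Ccne1 and Ccne2 gave 0.04 ± 0.29 and -0.05 ± 0.17.

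Origin licensing loads the MCM helicase onto DNA before S phase. Cdc6, the ATPase that loads it, measured -4.71, -4.89 and -5.45 with corn oil and -3.82, -4.29 and -4.12 with chlorothalonil. All 3 treated arrays lay above all 3 controls, with a difference of 0.94 ± 0.22 that did not pass adjustment (95% interval 0.39 to 1.48; limma p 0.00597, adjusted p 0.0966). The probe was well above background on 2 of 3 corn oil arrays and was kept only through the chlorothalonil arrays, where it was high, so its separation had been favoured by the filter. With normexp background correction the difference was 0.36 (limma adjusted p 0.0809). Cdt1, the partner of CDC6 in loading, measured -5.72, -5.40 and -5.09 with corn oil and -4.96, -5.18 and -4.65 with chlorothalonil. Its groups overlapped, only 1 of 3 corn oil arrays was well above background, and the difference was 0.47 ± 0.20 (limma adjusted p 0.274).

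The helicase subunits and the sliding clamp carry replication itself, and their spread over the arrays differed by gene. Pcna, the clamp that holds DNA polymerase on its template, measured 1.77, 1.83 and 1.80 with corn oil and 1.73, 1.79 and 1.76 with chlorothalonil. Its 6 values lay within a narrow band and overlapped between groups, and the difference of -0.04 ± 0.06 had a 95% interval from -0.18 to 0.10. Mcm7 measured 1.51, 1.45 and 1.64 with corn oil and 1.49, 1.46 and 1.51 with chlorothalonil, also overlapping, with an interval from -0.23 to 0.13. Mcm2, Mcm4 and Mcm6 ranged more widely, over 0.36, 0.49 and 0.27 log2 units on the 6 arrays. They gave differences of -0.12 ± 0.10, -0.08 ± 0.14 and 0.09 ± 0.09. Mcm3 measured -0.78, -0.49 and -0.52 with corn oil and -0.76, -0.59 and -0.51 with chlorothalonil, a difference of -0.03 ± 0.11. Its 4 kept probes gave differences from -0.03 to 0.63, and the probe at 0.63, well above background on 1 of 3 corn oil arrays, read -2.90 on chlorothalonil replicate 3 against -5.29 to -4.61 on the other arrays.

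Enzymes that supply deoxynucleotides differed among themselves in spread. Rrm2, the cell cycle regulated subunit of ribonucleotide reductase, measured 0.85, 1.21 and 1.05 with corn oil and 0.53, 1.16 and 1.91 with chlorothalonil. The chlorothalonil arrays held both the lowest and the highest value, 2.61-fold apart, and the difference was 0.16 ± 0.34 (95% interval -0.68 to 1.01; limma adjusted p 0.838). The other kept probes of Rrm2 were lowest on corn oil replicates 1 and 3 instead. On these probes chlorothalonil replicate 3 exceeded replicate 1 by 0.34 and 1.06 log2 units. Rrm1, the catalytic subunit of the same enzyme, stayed between -1.24 and -1.13 on all 6 arrays, a difference of 0.01 ± 0.06. Tk1, the thymidine salvage kinase of S phase cells, measured 0.35, 0.41 and 0.41 with corn oil and 0.36, 0.75 and 0.78 with chlorothalonil. Chlorothalonil replicate 1 was level with the controls and the other treated arrays were higher, a difference of 0.23 ± 0.13 (limma adjusted p 0.369). The other kept probe of Tk1, well above background on all 6 arrays, did not share this and gave -0.07. With the mean of its probes the difference was 0.085 (limma adjusted p 0.787). Tyms, which makes thymidylate, gave -0.02 ± 0.09.

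Chek1, the checkpoint kinase that restrains the cycle when replication forks stall, measured -4.47, -4.35 and -3.89 with corn oil and -4.58, -4.74 and -4.77 with chlorothalonil. All treated arrays lay below all controls, and the difference was -0.46 ± 0.16 (95% interval -0.86 to -0.06; limma p 0.0307, adjusted p 0.201), or -0.13 with normexp background correction. Chek1 and Cdc6 are both dim. A spike-in control in a similar range, printed 35 times per array, read -3.35 with corn oil and -3.69 with chlorothalonil, a difference of -0.34. Over 8 spike-in controls well above background on every array, this difference ran from -0.34 to 0.05, and its part in the Chek1 value was not tested.

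Among the mitotic cyclins and their partners, the treated arrays spread on both sides of the controls. Cdk1, the kinase that drives entry into mitosis, measured 0.36, 0.92 and 0.72 with corn oil and 0.08, 0.70 and 1.24 with chlorothalonil. Chlorothalonil replicate 1 was lower than every control and replicate 3 higher than every control, 2.24-fold apart, while the group means nearly coincided (difference 0.00 ± 0.31; 95% interval -0.77 to 0.77; limma adjusted p 0.997). Ccnb1, cyclin B1, the activator of CDK1, measured -2.99, -2.40 and -2.53 with corn oil and -3.02, -2.34 and -1.55 with chlorothalonil. Its treated arrays were 2.76-fold apart, and its difference of 0.34 ± 0.38 (limma adjusted p 0.679) was the highest of the 23 G2/M genes. Ccnb2 and Ccna2, the other cyclins of G2 and mitosis, spanned 2.72-fold and 2.18-fold between the same arrays, with differences of 0.23 ± 0.37 and 0.07 ± 0.29. Foxm1, the transcription factor of the G2/M genes, spread less, from -1.61 to -1.17 over all 6 arrays, and gave -0.09 ± 0.12. Its other kept probe, well above background on 2 of 3 corn oil arrays, gave -0.39 and was lowest on chlorothalonil replicate 2. Cdkn3, a phosphatase that acts on CDKs, gave -0.04 ± 0.14 and did not share the array order of the cyclins.

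Of the mitotic kinases, Plk1, needed for spindle poles and mitotic exit, measured -0.94, -0.59 and -0.88 with corn oil and -1.07, -0.58 and -0.11 with chlorothalonil. Replicates 1 and 3 of the treated group again held the ends, 1.94-fold apart, and the difference was 0.21 ± 0.25 (95% interval -0.40 to 0.83; limma adjusted p 0.689). Aurka, Aurora kinase A of the spindle poles, gave -0.09 ± 0.24. Aurkb, the kinase of the chromosomal passenger complex, was well above background on 2 of 6 arrays, chlorothalonil replicates 1 and 2, and was not tested. Its levels were -5.54, -5.34 and -5.58 with corn oil and -5.14, -5.21 and -5.27 with chlorothalonil. Melk had no probe matched to a transcript, and the same held for Mcm5, Bub1b, Cenpe and Top2a.

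The genes of the kinetochore, the spindle checkpoint and anaphase all had chlorothalonil replicate 1 as their lowest array and chlorothalonil replicate 3 as their highest, in 6 of 6 cases. Cenpf, a kinetochore protein, measured -4.53, -4.27 and -4.16 with corn oil and -4.97, -4.04 and -3.35 with chlorothalonil. Its treated arrays were 3.09-fold apart, the widest span of the G2/M genes, and the difference was 0.20 ± 0.40 (95% interval -0.79 to 1.19; limma adjusted p 0.826). Cdc20, the activator of the anaphase-promoting complex, measured -0.41, -0.33 and -0.43 with corn oil and -0.66, -0.36 and -0.04 with chlorothalonil. Its controls lay close together (SD 0.05, n = 3) and its treated arrays apart (SD 0.31, n = 3), with a difference of 0.04 ± 0.16 (limma adjusted p 0.923). The checkpoint kinases Bub1 and Ttk gave 0.12 ± 0.20 and 0.07 ± 0.31, survivin (Birc5) gave -0.02 ± 0.23, and the ubiquitin carrier Ube2c gave -0.16 ± 0.30.

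Genes of the spindle and of cytokinesis were more mixed. Racgap1, part of the centralspindlin complex that sets the cleavage plane, measured -2.19, -2.18 and -2.10 with corn oil and -2.25, -1.62 and -1.62 with chlorothalonil. Chlorothalonil replicate 1 was below the controls and the other treated arrays above them, a difference of 0.32 ± 0.18 (95% interval -0.13 to 0.77; limma adjusted p 0.393), and all its probes lay between 0.26 and 0.40. Prc1, which bundles the microtubules of the central spindle, measured -2.08, -1.53 and -1.85 with corn oil and -2.38, -1.36 and -1.14 with chlorothalonil, a difference of 0.19 ± 0.35 (limma adjusted p 0.807). Its other probe gave -0.42, a value set by chlorothalonil replicate 1 at -6.73, where that probe was not well above background. Kif20a, Ect2 and Nusap1, which serve the midzone, the cleavage furrow and the spindle, gave 0.29 ± 0.33, 0.21 ± 0.33 and 0.16 ± 0.27.

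Kif11, the motor that separates the spindle poles, did not share this spread. It measured 2.51, 2.56 and 2.40 with corn oil and 2.32, 2.39 and 2.37 with chlorothalonil, so every treated array lay just below every control. The difference was -0.13 ± 0.07 (95% interval -0.30 to 0.04; limma p 0.112, adjusted p 0.368), and its other probe gave -0.33. Tpx2, which activates Aurora A, also had treated arrays closer together than its controls (SD 0.04 against 0.45), with a difference of -0.18 ± 0.22. Kif23, the motor of centralspindlin, ranged over 0.29 log2 units on the 6 arrays. Its treated arrays lay further apart than its controls (SD 0.15 against 0.03), and the difference was 0.06 ± 0.09. Mki67, the antigen Ki-67 used to count cycling cells, measured -0.14, 0.09 and -0.06 with corn oil and -0.29, 0.08 and 0.33 with chlorothalonil. Replicates 1 and 3 of the treated group lay on either side of the controls, and the difference was 0.08 ± 0.17 (95% interval -0.34 to 0.49; limma adjusted p 0.847), with its 5 probes between -0.15 and 0.15. Its other kept probes did not all share this array order. Some were highest on corn oil replicate 2, and another was lowest on corn oil replicate 1. On all of them chlorothalonil replicate 3 exceeded replicate 1, by 0.38 to 0.77 log2 units.

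**Figure D3:**
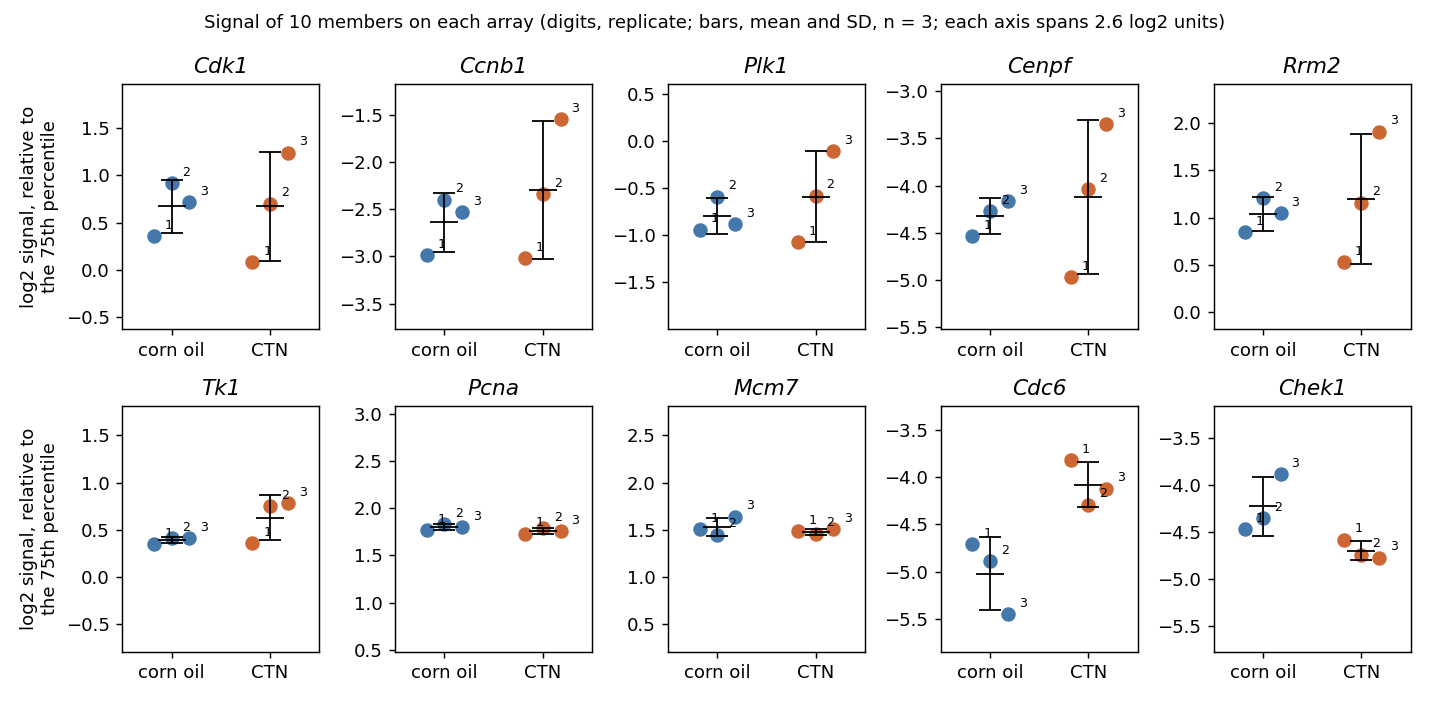
Log2 level relative to the array's 75th percentile is plotted on each of the 6 arrays for 10 genes, with the mean and SD of each group (n = 3) as bars, digits for the replicate and CTN for chlorothalonil. For Cdk1, Ccnb1, Plk1, Cenpf and Rrm2 the lowest and the highest point are both chlorothalonil arrays; Pcna and Mcm7 form tight bands; Cdc6 and Chek1 have groups that do not overlap.

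The second comparison went array by array. Of the 23 G2/M genes, 20 had their lowest value on chlorothalonil replicate 1, against 6 of 15 G1/S genes and 13.4% of the 26934 features well above background on all arrays. The highest value fell on chlorothalonil replicate 3 for 18 of 23 G2/M genes and 5 of 15 G1/S genes, beside 20.7% of features. Both held for 17 of 23 G2/M genes and 3 of 15 G1/S genes, beside 2.54% of features. Chlorothalonil replicate 3 was at least 2-fold above replicate 1 for 10 of 23 G2/M genes and for 1 of 15 G1/S genes, Rrm2, beside 1.01% of features. The median gap between these 2 arrays was 0.96 over G2/M genes and 0.17 over G1/S genes, beside 0.01 over all features. Genes of 1 array are not independent replicates, and 1 animal stands behind each array, so these counts describe 2 animals and carry no test.

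The G2/M genes outside the shared order were few, and they are named after their values were seen. Kif11, Kif23, Foxm1, Cdkn3 and Tpx2 had gaps between chlorothalonil replicates 3 and 1 of 0.05, 0.24, 0.29, -0.08 and -0.08. Ect2 had its lowest value on corn oil replicate 1 instead, with a gap of 1.03. Corn oil replicate 1 was the lowest of the controls for 19 of 23 G2/M genes and 9 of 15 G1/S genes, beside 30.9% of features. The G2/M median on the controls, relative to their own mean, was -0.212, 0.159 and 0.055 for replicates 1 to 3, so the controls spread in the same way over a smaller range. Other probes of the same genes, not used for these values, were read where well above background on all 6 arrays. Of 13 such G2/M probes 11 were lowest on chlorothalonil replicate 1 and 10 highest on replicate 3, and of 13 such G1/S probes 4 and 5, beside 13.2% and 20.8% of all 36896 such probes.

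Without chlorothalonil replicate 3, the array with the conflicting label, replicate 1 was the lowest of the remaining 5 arrays for 21 of 23 G2/M genes and 7 of 15 G1/S genes, beside 18.4% of features. The median gap between chlorothalonil replicates 2 and 1 was 0.53 over G2/M genes, 0.14 over G1/S genes and -0.01 over all features. Without that array the differences from corn oil were -0.28 for Cdk1, -0.04 for Ccnb1, -0.02 for Plk1, -0.18 for Cenpf and -0.19 for Rrm2. Each of these had been above 0 with all arrays. Cdc20, Mki67, Prc1 and E2f1 also turned, to -0.119, -0.071, -0.054 and -0.009. Racgap1, Tk1 and Cdc6 stayed above 0, at 0.217, 0.16 and 0.958.

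**Figure D4:**
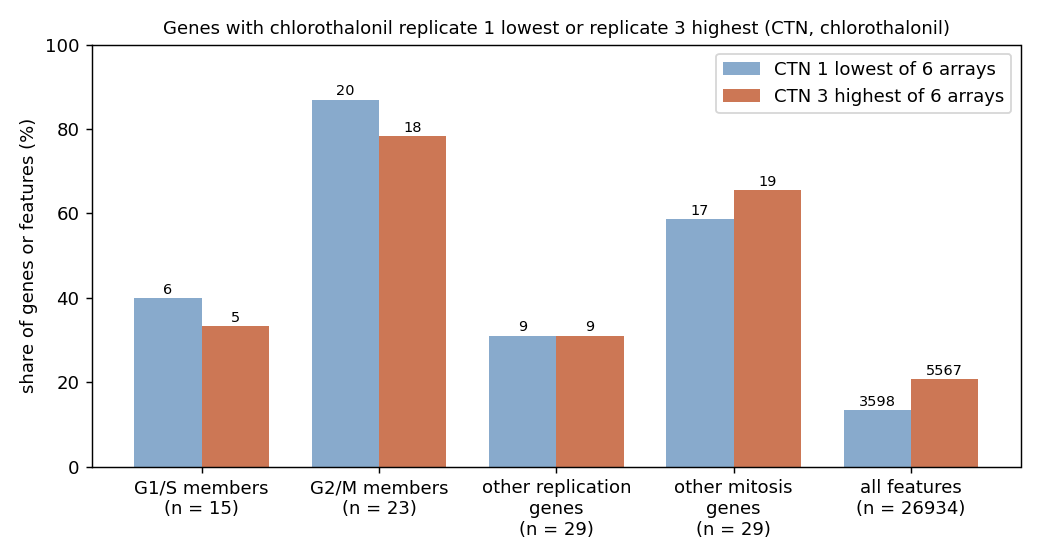
Bars give the percent of genes whose lowest of 6 values fell on chlorothalonil replicate 1 (blue) and whose highest fell on chlorothalonil replicate 3 (orange), for G1/S genes, G2/M genes, other replication and mitosis genes and all features, each well above background on every array, with counts above the bars. Chlorothalonil replicate 1 holds the lowest value of 20 of 23 G2/M genes, and chlorothalonil replicate 3 the highest of 18 of 23.

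Spread within the groups exceeded the difference between them for most of these genes. The median SD over G2/M genes was 0.191 among corn oil arrays and 0.479 among chlorothalonil arrays (n = 3 each), and it was larger with chlorothalonil for 21 of 23. Over G1/S genes the median SD was 0.132 and 0.138, larger with chlorothalonil for 8 of 17, and over all features 0.120 and 0.114, larger for 13678 of 29115. With chlorothalonil replicate 3 left out, the median SD of the other treated arrays was 0.377 over G2/M genes (n = 2), larger than with corn oil for 20 of 23, against 34.3% of all features. The range among the treated arrays was wider than the group difference for 21 of 23 G2/M genes and 15 of 17 G1/S genes, beside 67.5% of all features. The same held of the range among the corn oil arrays for 22 of 23 and 14 of 17, beside 70.7%. Whether the spread itself differs between groups was not tested, since 3 arrays a group were available. Leaving out single arrays moved the G2/M median difference from 0.074 to 0.301 without chlorothalonil replicate 1 and to -0.103 without chlorothalonil replicate 3. Without chlorothalonil replicate 1, 8 genes reached an unadjusted p under 0.05 (Cdc6, Tk1, Chek1, Cenpf, Nusap1, Kif20a, Racgap1 and Prc1), beside 15.6% of all features in that fit. Of these 0 passed adjustment, the lowest limma adjusted p being 0.0728 for Racgap1. Without chlorothalonil replicate 3, 2 of 41 genes reached an unadjusted p under 0.05, beside 16.8% of all features, and 0 passed adjustment (lowest limma adjusted p 0.215). These were Cdc6 and Aurkb, both kept only through the chlorothalonil arrays, where they were high, so no support is drawn from them.

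Genes of the same processes outside the 46 were taken from 4 lists of 126 genes, of which 97 were tested. Of these, 0 passed the adjusted threshold, beside 3.12% of features, and 12 had an unadjusted p under 0.05, 8 higher and 4 lower with chlorothalonil, a smaller share than the 19.7% of all features (9.6% higher, 10.1% lower). Their median difference was 0.019. By list, an unadjusted p under 0.05 was reached by 3 of 12 CDK inhibitors and RB family genes, 3 of 21 other cyclins, CDKs and E2F factors, 5 of 33 replication genes and 1 of 31 mitosis genes. Cdkn1a, the p53-induced inhibitor p21, differed by -0.12 ± 0.07 (limma adjusted p 0.408) and is named here outside the rule, as a widely used arrest marker. Every treated array lay below every control for Cdkn1a, beside 14.0% of all features, and its other kept probe gave -0.44. In that list the smallest p-values were those of Cdkn1c, the inhibitor p57 made by podocytes, at 0.35 ± 0.12 (limma adjusted p 0.187; 0.15 with the mean of its 5 probes), and of the RB relative Rbl2, at 0.21 ± 0.08 (limma adjusted p 0.234). Cdk2, the kinase of cyclins E and A, gave -0.29 ± 0.10, and the phosphatase Cdc25b, which activates CDKs, 0.27 ± 0.10 (limma adjusted p 0.206 and 0.22).

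Of the replication genes, Gins3, a subunit of the replicative helicase, measured -5.31, -5.07 and -5.19 with corn oil and -4.77, -4.74 and -4.44 with chlorothalonil. Its difference of 0.54 ± 0.12 missed the threshold (limma adjusted p 0.0787) and was 0.14 with normexp background correction. It was well above background on 2 of 3 corn oil arrays and was kept only through the chlorothalonil arrays, so its separation is no support. Cdc7, the kinase that fires origins, lay higher in every treated array than in any control, by 0.53 ± 0.16 (limma adjusted p 0.15), or 0.33 with normexp. Among mitosis genes Cdc27, a scaffold subunit of the anaphase-promoting complex, measured -0.81, -0.70 and -0.68 with corn oil and -0.42, -0.42 and -0.36 with chlorothalonil. The treated arrays were close together and above all controls, with a difference of 0.33 ± 0.07 (limma adjusted p 0.0669). The other kept probe of Cdc27 gave 0.12, and the mean of its probes gave 0.224 (limma adjusted p 0.19). Kif15, a spindle motor, gave -1.01 ± 0.54 (limma adjusted p 0.37), with corn oil replicate 3 at -1.77 against -3.71 and -3.43 on the other controls.

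The array order of the G2/M members was also seen in these other mitosis genes. Of 29 well above background on all arrays, 17 were lowest on chlorothalonil replicate 1 and 19 highest on replicate 3, and both held for 12, beside 13.4%, 20.7% and 2.54% of features. Their median gap between these arrays was 0.73, and for 6 of the 29 it exceeded 2-fold, beside 1.01% of features. Of 29 other replication genes 9 were lowest on the first and 9 highest on the second, both for 2, with a median gap of 0.12, to be read against the same shares. Only some tested G2/M members had a promoter at hand. Among those the gap had a median of 0.88 for the 9 with CHR letters and 0.97 for the 9 without. The ranges overlapped, at -0.08 to 1.45 and 0.05 to 1.63. These are matches of letters, and whether CHR has a part in the gap was not tested.

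**Figure D5:**
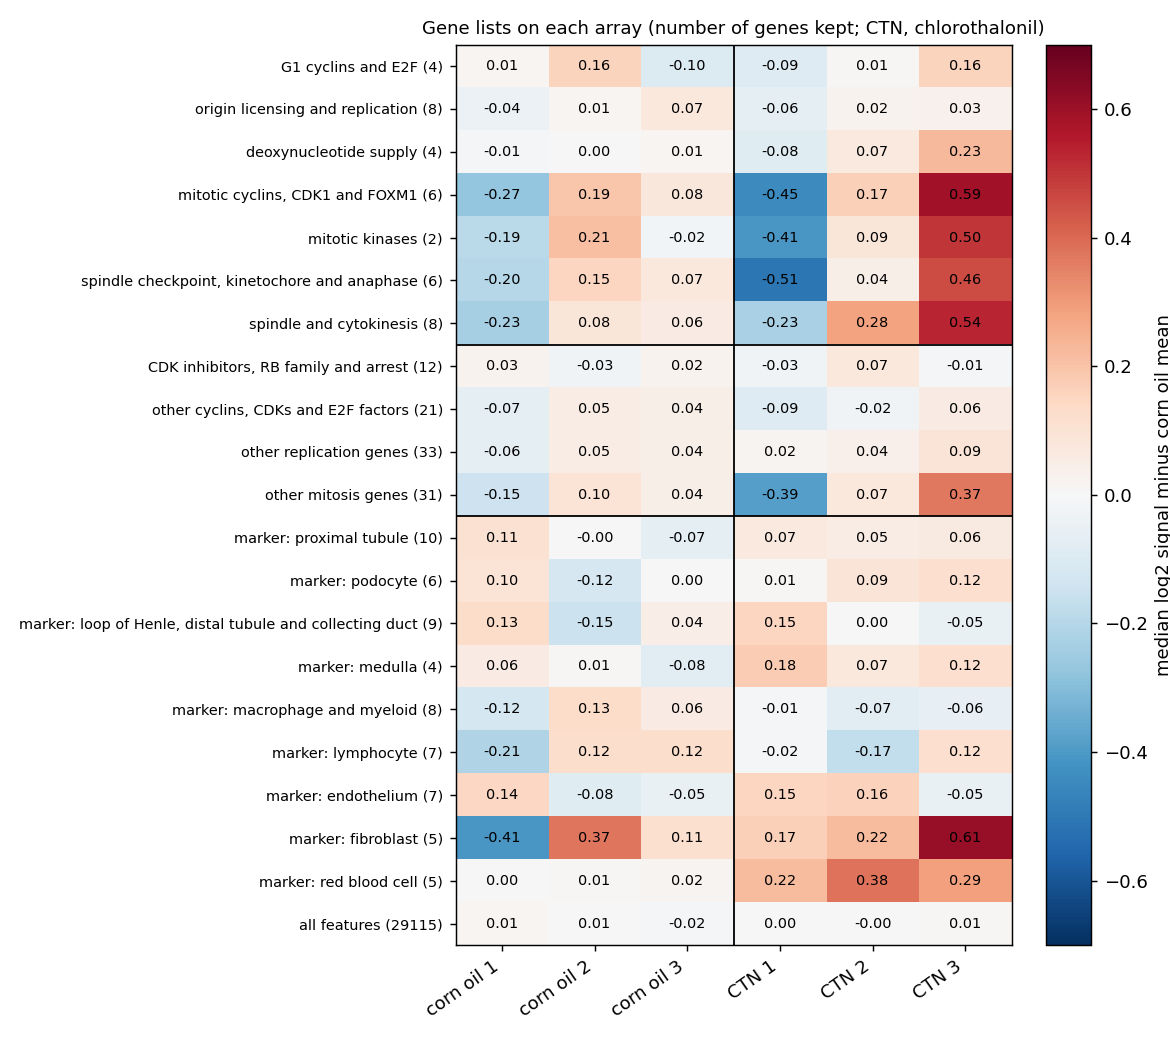
Cells give the median log2 deviation of each gene list from its corn oil mean on each of the 6 arrays, for role groups of the 46 genes, other cell cycle lists and markers of kidney and other cell types. The 3 largest mitotic role groups run from low on chlorothalonil replicate 1 to high on replicate 3. For spindle and cytokinesis, corn oil replicate 1 is equally low (-0.232 against -0.225 on chlorothalonil replicate 1). The fibroblast markers are lowest on corn oil replicate 1 and highest on chlorothalonil replicate 3.

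Markers of other cell types were read on the same arrays, because cycling cells of the cortex need not be tubule cells. Of 7 fibroblast markers 5 were tested, and the log2 of their summed signal was 4.07 to 4.81 with corn oil and 4.69 to 5.06 with chlorothalonil. Corn oil replicate 1 was lowest for 5 of these 5 and chlorothalonil replicate 3 highest for 4 of 5, beside 16.5% and 20.7% of features. Over the same 6 arrays corn oil replicate 1 was lowest for 2 of 23 G2/M genes, beside the same 16.5% of features. Chlorothalonil replicate 1 was lowest for 0 of 5 fibroblast markers, beside 13.4% of features. Lymphocyte markers, 7 of 12 tested and without Cd3e, Cd2, Cd79a, Cd79b and Ms4a1, summed to 0.97 to 1.35 with corn oil and 0.98 to 1.27 with chlorothalonil. Macrophage and myeloid markers, 8 of 10 tested and without Cd163 and Itgam, summed to 6.56 to 6.71 and 6.55 to 6.92. Red blood cell markers, 5 of 6 tested, summed to 8.91 to 8.97 and 9.15 to 9.26, and 5 of 5 were higher with chlorothalonil at an unadjusted limma p under 0.05, 0 of them at an adjusted p under 0.05, where 9.6% of all features were higher at an unadjusted p under 0.05. Proximal tubule markers summed to 10.98 to 11.12 with corn oil and 11.18 to 11.25 with chlorothalonil, a sum that the brightest probes set. Of the 10, 3 were higher and 2 lower at an unadjusted limma p under 0.05, beside 9.6% and 10.1% of all features, and 0 passed adjustment. The part of any of these in the G2/M values was not tested.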

How the data were processed

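Total RNA of renal cortex from 6 rats was labelled with Cy3 and hybridised to 1-colour Agilent arrays, 1 per animal. The deposited scanner files hold the processed signal intensity of each spot, background-corrected by Agilent Feature Extraction 10.7, per the submitters' processing notes and the file headers. The deposited value table holds a linear ratio per probe: each column was the processed signal divided by 1 constant per array near its 75th percentile, and served as an alternative.

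Intensities were scaled to the 75th percentile of the 61537 non-control probes and put on the log2 scale. Outlier spots (0 to 9 per array) were left out. A probe was kept when well above background on all 3 arrays of a group and measured on at least 2 arrays of each (39862 probes). Probes took a gene name from their RefSeq accession, without version, through the RefSeq gene table of GRCr8 (28206 probes, 15645 symbols, 33331 not matched); the brightest kept probe stood for its gene. The 6 arrays were fitted with limma 3.58.1 (lmFit, eBayes; R 4.3.3), two-sided, with Benjamini-Hochberg adjustment over all 29115 features at 0.05, and intervals are 95%. The number of arrays limits the precision. The procedure was tested on simulated data with known changes.

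Values in every array are given for genes with an unadjusted p under 0.05, for the brightest gene and the gene with the largest difference in each role group, and for genes whose probes differ in sign by over 0.5; some others were added for comparison. For the 4 wider lists, the 2 genes with the smallest p were named. The members, phases and lists were chosen with earlier results of these data known. Alternatives changed the scaling, background correction, filter, outliers, probes of a gene, variance prior, replicate block and arrays included. The array order and spread without chlorothalonil replicate 3, and the count of other probes well above background on all 6 arrays, were added after seeing the data.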

Additional observations from a re-analysis of the deposited data

How the results depend on the processing

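None of the 38 to 41 members tested passed the adjusted threshold (limma) in any of the 16 alternatives, and the G1/S and G2/M medians moved by less than their SD between arrays in each, crossing 0 in some (0.045 for G1/S with the mean of probes). The calls over all features, 909 in the analysis reported, were 172 with no filter on dim probes, 0 with the replicate block, and 112 to 388 with single arrays left out. The block changed no call among the 40 members tested. The replicate numbers are not known to pair animals: same-numbered arrays had r of 0.095, 0.018 and 0.051 in their deviations, and corn oil replicate 2 correlated best with another number (0.053). Genes with an unadjusted p under 0.05 numbered 2 as reported. There was 1 with only probes well above background on all 6 arrays, and 1 with a trended and robust variance prior. There were 5 with the mean of probes (E2f1, at 0.552, Cdc6, Chek1, Foxm1 and Kif11), and 2 to 8 with single arrays left out. Among the wider lists, 1 gene passed under array median scaling, Cdc27 (0.384, limma adjusted p 0.0452; 0.0452 to 0.19 over all alternatives). Of the differences near 0, some turned sign: Ccnd1 was 0.041 with median scaling, 0.031 with normexp and 0.053 with the mean of probes; E2f1 -0.021 and Cdk1 -0.044 with normexp; Mcm3 0.024 and Pcna 0.016 with median scaling; Mcm3 0.270 and Prc1 -0.112 with the mean of probes. With single arrays left out, ranges that included 0 were -0.037 to 0.695 for Ccnb1, -0.072 to 0.021 for Ccnd1, -0.119 to 0.192 for Cdc20, -0.282 to 0.301 for Cdk1, -0.183 to 0.630 for Cenpf, -0.009 to 0.148 for E2f1, -0.120 to 0.042 for Mcm3, -0.071 to 0.242 for Mki67, -0.024 to 0.455 for Plk1, -0.054 to 0.570 for Prc1 and -0.193 to 0.499 for Rrm2. Cdc6 kept its direction, at 0.365 to 1.089 (limma adjusted p 0.0809 to 0.237), and Chek1 at -0.579 to -0.128. Fewer arrays or other probes enter some of these by construction; otherwise the cause was not tested. Slide could not be fitted as a block, since each slide held 1 group. Dim genes such as Cdc6, Cdt1 and Aurkb are limited by signal over background.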

Other observations

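Some mitosis genes outside the 46 had a wider span between 2 treated animals than most of the members. Chosen after their values were seen, the genes with chlorothalonil replicate 3 at least 1 log2 unit above replicate 1 were Cenpw at 1.47, Kif2c at 1.44, Ckap2 at 1.26, Cdca3 at 1.24, Spag5 at 1.23, Spc25 at 1.09 and Nuf2 at 1.08. They encode proteins of the kinetochore (Cenpw, Spc25, Nuf2), a motor that shortens microtubules (Kif2c), spindle proteins (Ckap2, Spag5) and a regulator of mitotic entry (Cdca3). Kif2c was well above background on 2 of 3 corn oil arrays.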
